A study of Mus musculus with 17 samples.

Results

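The sulfonation enzymes of the mouse colon were described here by 9 genes, namely 7 cytosolic sulfotransferases (Sult1a1, Sult1b1, Sult1c2, Sult1d1, Sult2b1, Sult4a1 and Sult5a1) and the 2 synthases of their sulfate donor (Papss1 and Papss2). They were found by name among the non-control probes of a 1-colour Agilent array, which carries 37074 gene or transcript names. The array holds 16 probes for these 9 genes, and each gene was represented by the probe with the highest mean in the authors' table of log2 values. These 9 probes were well above the background on all 17 arrays. Of the other 7 probes, 4 were well above the background on every array and 3 on at most 2 arrays.

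Sulfonation transfers a sulfonate group from 3'-phosphoadenosine 5'-phosphosulfate (PAPS) to phenols, amines, steroids and sterols, which makes most of them more soluble in water. PAPS is made from ATP and inorganic sulfate by the PAPS synthases, which carry an ATP sulfurylase and an APS kinase in the same protein. The cytosolic sulfotransferases act on small molecules, and enzymes of the Golgi use the same donor for glycans and tyrosines. In the gut these enzymes meet phenols from food and bacteria, and PAPS is also needed for the sulfated mucins of goblet cells. The pregnane X receptor (PXR, gene Nr1i2) is a nuclear receptor that is known for the control of drug-metabolizing enzymes in liver and intestine, sulfotransferases among them.

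RNA was taken from the colon of male C57Bl6/J mice in 4 groups, and no other tissue was analysed here. WT CONT (n = 4) and Pxr-/- CONT (n = 5) received corn oil, and WT PCN (n = 4) and Pxr-/- PCN (n = 4) received pregnenolone 16α-carbonitrile (PCN), a ligand of rodent PXR, at 100 mg/kg in corn oil, by daily intraperitoneal injection during 4 days. Mice had free access to food and were killed 6 h after the last injection, at ZT6, when the authors describe them as semi-fasted. WT mice were purchased at 6 weeks of age and acclimatized for 2 weeks, whereas Pxr-/- mice, which lack PXR in the whole body, were bred in house and their age is not given in the sources used here. Genotype and origin of the mice cannot therefore be told apart. In each group 6 mice were allocated, and the labels do not tie arrays to mice otherwise, so p-values measure the spread between these samples.

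Several facts of the whole series come before the results. Pxr-/- PCN 2 and WT PCN 4 had almost the same values, with an SD of log2 differences of 0.136 over 32160 probes, and so had WT PCN 3 and Pxr-/- CONT 2 (0.155), whereas the other 134 pairs of arrays gave 0.260 to 0.577. Over the 9 genes these pairs differed on average by 0.0292 and 0.0573 (log2), against 0.0899 to 0.767 in the other pairs. The labels of each pair name different groups, so the counts of members at each threshold are given with all 17 arrays and without these 4 (13 arrays). Fitted values of single genes are from 17 arrays unless 13 are named. The probe for Nr1i2 read 11.97 to 12.31 (log2) in WT CONT, 11.10 to 12.44 in WT PCN, 10.39 to 11.61 in Pxr-/- CONT and 10.95 to 11.93 in Pxr-/- PCN, and whether it lies in the deleted part of the gene is not given in the sources used here. Markers of colonocytes and goblet cells were high on every array (list means of 14.85 to 15.47 and 17.26 to 17.86). The squamous epithelium list had means of 6.21 to 6.96. Of its genes Krt14, Krt1, Krt10 and Lor were well above the background on all 17 arrays and Krt5 on 13, whereas Krt4, Krt13 and Sprr3 were so on none. Between arrays the markers of pancreas ranged from 5.52 to 17.66, those of liver from 5.94 to 11.02, those of adipocytes from 7.59 to 10.35 and those of smooth muscle from 14.96 to 15.86, and the part of these tissues in the members' levels was not tested. The arrays lay in 2 wash baths, which entered the model.

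The probes are 60 bases long, and the array files place them on build mm9. The Sult1b1 and Sult1d1 probes lie near each other on chromosome 5, at chr5:87943760-87943819 and chr5:87984658-87984717, both on the minus strand. The Sult1a1 and Sult2b1 probes lie on chromosome 7 (chr7:133816605-133816664 and chr7:52985450-52985509, minus strand). Sult1c2 was read at chr17:53969205-53969264, Sult4a1 at chr15:83906546-83906605 and Sult5a1 at chr8:125666951-125667010, all on the minus strand, and Papss1 and Papss2 at chr3:131306415-131306474 and chr19:32741618-32741677 on the plus strand. A second probe on every array was available for Sult1a1, Sult1b1, Sult1d1 and Papss2. The 5 probes printed below read as coding sequence, with a frame that is open throughout or ends in a stop codon, although no gene models of this build were used to place them. In that of Sult1d1 the capitals mark the codons of a glycine-aspartate-tryptophan-lysine-asparagine stretch, part of the loop near the end of cytosolic sulfotransferases that binds PAPS. In that of Sult1a1 they mark the stop codon that closes its frame at the last base. The Sult1a1, Sult1d1 and Papss2 sequences are those of the second probes, and the Sult2b1 and Sult5a1 sequences those of the probes used throughout.
Sult1d1 probe: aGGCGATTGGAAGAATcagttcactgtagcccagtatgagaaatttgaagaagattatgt
Sult1a1 probe: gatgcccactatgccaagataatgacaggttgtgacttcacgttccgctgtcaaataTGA
Sult2b1 probe: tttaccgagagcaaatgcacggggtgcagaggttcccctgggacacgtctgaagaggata
Sult5a1 probe: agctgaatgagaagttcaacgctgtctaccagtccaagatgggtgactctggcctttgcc
Papss2 probe: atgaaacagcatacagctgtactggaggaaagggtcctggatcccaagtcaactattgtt

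None of the 9 genes passed the threshold (FDR of at most 0.05 over 38703 probes and a fold change over 1.5, limma) in any comparison, with all 17 arrays or with 13. For PCN in WT mice the threshold was passed by 0% of all probes with 17 arrays and by 0.0491% with 13, and for PCN in Pxr-/- mice by 0.00517% and 0.0517%. For genotype, the shares were 0% and 0% between the CONT groups and 0% and 0.0207% between the PCN groups. The difference between the PCN effects of both genotypes gave 0% and 0.00258%. Beside such shares, a count of 0 among 9 genes is not a result about these genes.

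At an unadjusted p under 0.05, 1 of the 9 genes differed with PCN in WT mice (Papss1) and 2 in Pxr-/- mice (Papss1 and Sult4a1), where 4.66% and 7.35% of all probes did. The comparison of genotypes gave 1 gene in CONT mice (Sult5a1) and 1 in PCN mice (Sult4a1), beside 12.7% and 3.28% of all probes. Sult4a1 was also the gene whose PCN effect differed between genotypes, beside 5.38% of all probes. With 13 arrays only the values of Sult4a1 for PCN in Pxr-/- mice and for the difference between PCN effects remained under 0.05. The shares of all probes were then 4.68% and 7.19% for PCN in WT and Pxr-/- mice, 10.1% and 7.56% for genotype in CONT and PCN mice, and 2.95% for the difference.

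The intervals show how large a change could have been missed. For PCN in WT mice the fitted log2 fold changes ran from -0.18 (Papss1) to 0.28 (Sult4a1), with a median of 0.01 beside 0.00 over all probes. The 95% interval lay within a 1.5-fold change either way for 5 genes, namely Sult1b1, Sult2b1, Sult5a1, Papss1 and Papss2. For PCN in Pxr-/- mice the values ran from -0.56 (Sult4a1) to 0.20 (Sult5a1), with a median of -0.03, and the interval lay within 1.5-fold for 6 genes. The interval also lay within 1.5-fold for 6 genes in each comparison of genotypes, but with 13 arrays for 3 in CONT mice and 2 in PCN mice. The difference between PCN effects was less well bounded, and its interval lay within 1.5-fold for 1 gene, Papss1. With 13 arrays the interval lay within 1.5-fold for 3 genes in WT mice and 4 in Pxr-/- mice.

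**Figure D1:**
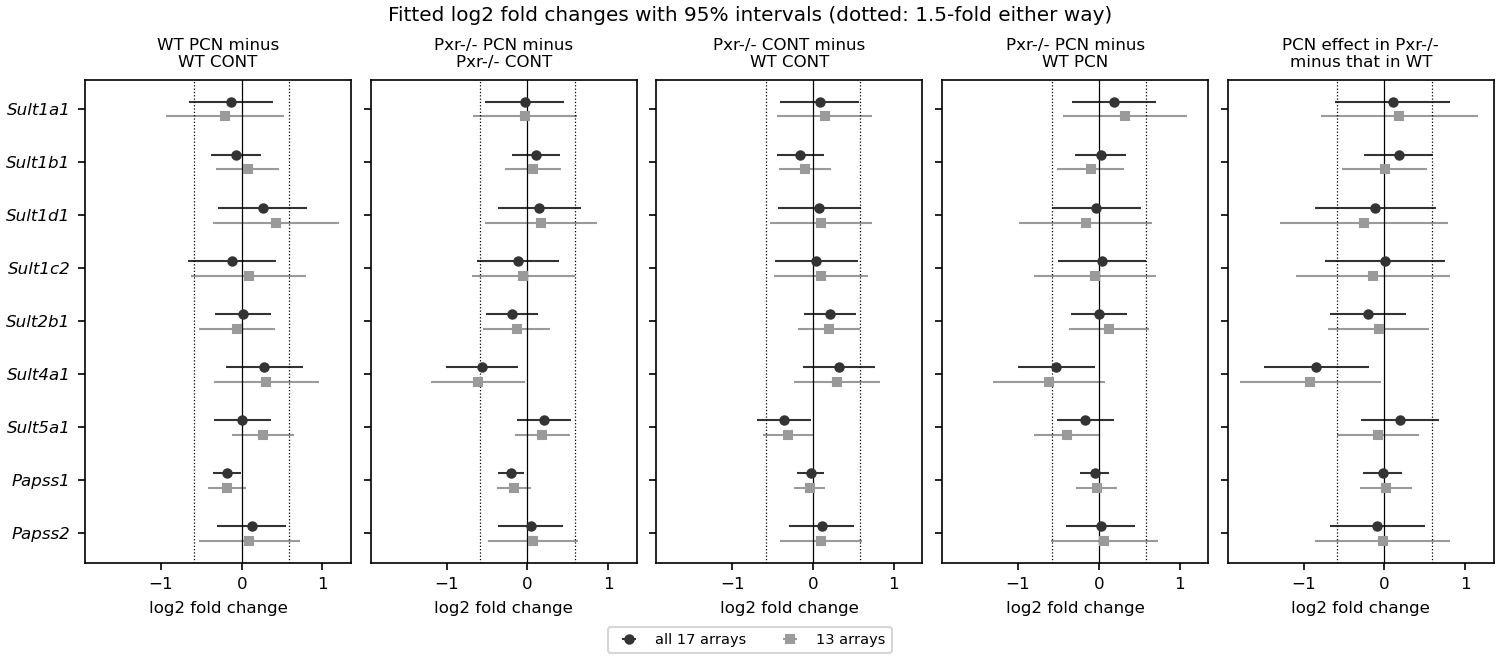
Fitted log2 fold changes of the 9 genes (horizontal axis) in 5 comparisons, with all 17 arrays (dark circles) and without the 4 near-identical arrays (grey squares). Bars are 95% intervals from limma and dotted lines mark a 1.5-fold change either way. Sult4a1 lies lowest for PCN in Pxr-/- mice (-0.56) and for the difference between PCN effects (-0.84), and the intervals of Papss1 are the narrowest.

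Papss1 is the PAPS synthase found in most tissues. Its log2 signal was 11.88, 11.83, 11.84 and 11.95 in WT CONT and 11.59, 11.80, 11.85 and 11.65 in WT PCN. In Pxr-/- mice it was 11.66, 11.85, 11.86, 11.93 and 11.87 in CONT and 11.45, 11.63, 11.85 and 11.65 in PCN. Each PCN group lay lower on average than its CONT group, but the highest PCN array reached the CONT values in both genotypes. The fitted log2 fold change was -0.18 (SE 0.08) in WT mice (limma, unadjusted p = 0.046, adjusted p = 0.96, and p = 0.086 in an exact two-sided permutation test, 0.029 being the smallest possible). In Pxr-/- mice it was -0.20 (SE 0.08, limma, unadjusted p = 0.020, adjusted p = 0.60, exact permutation p = 0.048). The direction was thus shared by WT mice and mice without PXR, and the PCN effects differed by -0.02 (95% interval -0.26 to 0.22). Without the 4 arrays the values were -0.18 and -0.16 (limma, unadjusted p = 0.12 in both), with only 2 WT PCN arrays left (11.59 and 11.80). The exact permutation p in Pxr-/- mice was then 0.17. Leaving out WT PCN 1 gave an unadjusted limma p of 0.13 in WT mice, and leaving out Pxr-/- PCN 1 gave 0.091 in Pxr-/- mice.

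Papss2 is the synthase known for cartilage and for tissues with a large need for sulfate. Its log2 signal was 14.54, 14.48, 14.98 and 14.53 in WT CONT and 14.45, 15.00, 14.84 and 14.70 in WT PCN. It was 14.72, 14.81, 14.89, 14.87 and 14.42 in Pxr-/- CONT and 14.57, 14.72, 14.39 and 15.42 in Pxr-/- PCN. The groups overlapped throughout, and the last array of Pxr-/- PCN, replicate 4, was the highest of all 17. The group means were 14.63 ± 0.23, 14.75 ± 0.23, 14.74 ± 0.19 and 14.78 ± 0.45 (SD) in the same order. The fitted log2 fold change with PCN was 0.13 (SE 0.20) in WT mice and 0.04 (SE 0.19) in Pxr-/- mice, both within the spread between arrays in limma (adjusted p = 0.97 and 0.98). A second probe for Papss2 gave 0.09 (SE 0.25) and 0.13 (SE 0.23).

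Of the class 1 enzymes, Sult1a1 is the main phenol sulfotransferase of the mouse. Its group means were 15.28 ± 0.26 in WT CONT, 15.12 ± 0.21 in WT PCN, 15.38 ± 0.28 in Pxr-/- CONT and 15.33 ± 0.59 in Pxr-/- PCN (SD, log2). The Pxr-/- PCN group held both the lowest array of all (14.72, replicate 3) and the highest (16.09, replicate 4), a 2.59-fold range. Its PCN effect was -0.13 (SE 0.24) in WT mice and -0.03 (SE 0.23) in Pxr-/- mice. The second Sult1a1 probe followed the first over the 17 arrays (Pearson's r = 0.99), although they share only 8 bases of the genome.

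Sult1b1 sulfonates phenols and thyroid hormones and is a major sulfotransferase of the intestine. Its means were 14.04 ± 0.09, 13.96 ± 0.32, 13.88 ± 0.14 and 13.99 ± 0.21 in WT CONT, WT PCN, Pxr-/- CONT and Pxr-/- PCN (SD, log2). The highest array was WT PCN 1 (14.43) and the other 3 WT PCN arrays lay at 13.80, 13.70 and 13.93, under the lowest WT CONT array (13.97). The last 2 of these values are from WT PCN 3 and 4, which belong to the near-identical pairs. Without WT PCN 1 the PCN effect in WT mice moved from -0.07 to -0.29. The 2 probes for this gene gave the same direction in all 5 comparisons with 17 arrays, with values of different size. With 13 arrays they gave opposite signs for PCN in WT mice (0.07 for the first and -0.17 for the second) and for genotype in PCN mice (-0.10 and 0.07), so the direction in these 2 comparisons is not settled. For PCN in WT mice the second gave -0.35 (SE 0.24), and for the difference between PCN effects it gave 0.62 (SE 0.33) where the first gave 0.18 (SE 0.20), with adjusted p of 0.96 and 0.85 for the second probe (limma). Over the arrays both probes correlated at r = 0.80.

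Sult1d1, which acts on catecholamines and other amines in rodents, lies next to Sult1b1 on the chromosome. Its log2 signal was 12.04, 11.95, 12.42 and 11.90 in WT CONT, and 12.24, 12.76, 12.15 and 12.26 in WT PCN. In Pxr-/- mice it was 11.89, 12.06, 12.12, 12.87 and 11.81 in CONT and 11.96, 12.25, 11.99 and 13.01 in PCN. Within each group 1 array stood above the others, WT CONT 4, WT PCN 2, Pxr-/- CONT 4 and Pxr-/- PCN 4. The PCN effect was 0.26 (95% interval -0.29 to 0.81) in WT mice and 0.15 (-0.37 to 0.66) in Pxr-/- mice. Both were within the spread between arrays (limma, adjusted p = 0.96 and 0.95). With 13 arrays the PCN effects were 0.43 (95% interval -0.35 to 1.20) in WT mice, with 2 WT PCN arrays left, and 0.17 in Pxr-/- mice.

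Sult1c2, a class 1 enzyme found in stomach and gut of rodents, had means of 12.64 ± 0.17, 12.56 ± 0.39, 12.67 ± 0.23 and 12.57 ± 0.60 in the same order of groups. Its lowest and highest arrays were again both in Pxr-/- PCN (11.97 in replicate 1 and 13.39 in replicate 4), a 2.68-fold range. The PCN effect was -0.12 in WT mice (SE 0.26) and -0.11 in Pxr-/- mice (SE 0.24). Without the 4 near-identical arrays it was 0.09 in WT mice, so its sign depended on them.

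Sult2b1 sulfonates cholesterol and pregnenolone. Its means were 12.39 ± 0.19 in WT CONT, 12.42 ± 0.18 in WT PCN, 12.59 ± 0.08 in Pxr-/- CONT and 12.41 ± 0.39 in Pxr-/- PCN (SD, log2). The Pxr-/- CONT arrays lay between 12.48 and 12.69 and the WT CONT arrays between 12.14 and 12.59. The genotype difference in CONT mice was 0.21 (SE 0.15), with p = 0.048 in an exact permutation test without the bath but 0.19 in limma (adjusted p = 0.57). With 13 arrays the exact permutation p was 0.086. Pxr-/- PCN 4 held the lowest level of all arrays (11.90).

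Sult5a1 is a sulfotransferase whose substrates are little known, and its other 2 probes were not well above the background on any array. Its log2 signal was 6.44, 5.99, 6.40 and 6.38 in WT CONT and 5.73, 5.78, 5.98, 6.32 and 5.94 in Pxr-/- CONT. Of the 5 Pxr-/- arrays 4 lay under the lowest WT CONT array, while replicate 4 (6.32) lay among the WT values. The genotype difference in CONT mice was -0.36 (SE 0.16, limma, unadjusted p = 0.036, adjusted p = 0.37, exact permutation p = 0.048). It was -0.06 within wash bath 1 and -0.57 within wash bath 2, and -0.31 with 13 arrays (limma, unadjusted p = 0.052, exact permutation p = 0.057). The values within baths rest on few arrays. Bath 1 held WT CONT 2 and 3 and Pxr-/- CONT 3 and 4, and bath 2 WT CONT 4 and 5 and Pxr-/- CONT 1, 2 and 5. Leaving out WT CONT 2 gave an unadjusted p of 0.10 (limma). The PCN arrays lay at 6.65, 6.49, 5.92 and 6.09 in WT mice and 6.18, 6.03, 6.05 and 6.32 in Pxr-/- mice, so that both groups overlapped with all others. In WT PCN the 2 low arrays were those of the near-identical pairs, and without the 4 arrays the PCN effect in WT mice moved from 0.01 to 0.27.

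Sult4a1 is a sulfotransferase of neurons, highly conserved and without a well-established substrate. Its other probe was well above the background on 2 arrays only. Its log2 signal was 9.14, 8.90, 9.70 and 9.08 in WT CONT and 9.30, 9.72, 9.69 and 9.18 in WT PCN. In Pxr-/- mice it was 9.57, 9.63, 9.57, 9.75 and 9.12 in CONT and 8.70, 9.14, 8.52 and 9.48 in PCN. The lowest 2 arrays of all were Pxr-/- PCN 1 and 3, and all 4 WT PCN arrays lay above 3 of the 4 WT CONT arrays. The PCN effect was 0.28 (SE 0.22) in WT mice and -0.56 (SE 0.21) in Pxr-/- mice (limma, unadjusted p = 0.23 and 0.017, adjusted p = 0.96 and 0.59). The effects differed by -0.84 (SE 0.31, unadjusted p = 0.015), which the adjustment over all probes did not retain (adjusted p = 0.85). An exact permutation test gave p = 0.056 for PCN in Pxr-/- mice. The PCN effect in Pxr-/- mice was -0.83 within wash bath 1 and -0.35 within wash bath 2, and -0.61 with 13 arrays (exact permutation p = 0.14). The values within baths rest on few arrays. Bath 1 held Pxr-/- CONT 3 and 4 and Pxr-/- PCN 2 and 3, and bath 2 Pxr-/- CONT 1, 2 and 5 and Pxr-/- PCN 1 and 4.

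**Figure D2:**
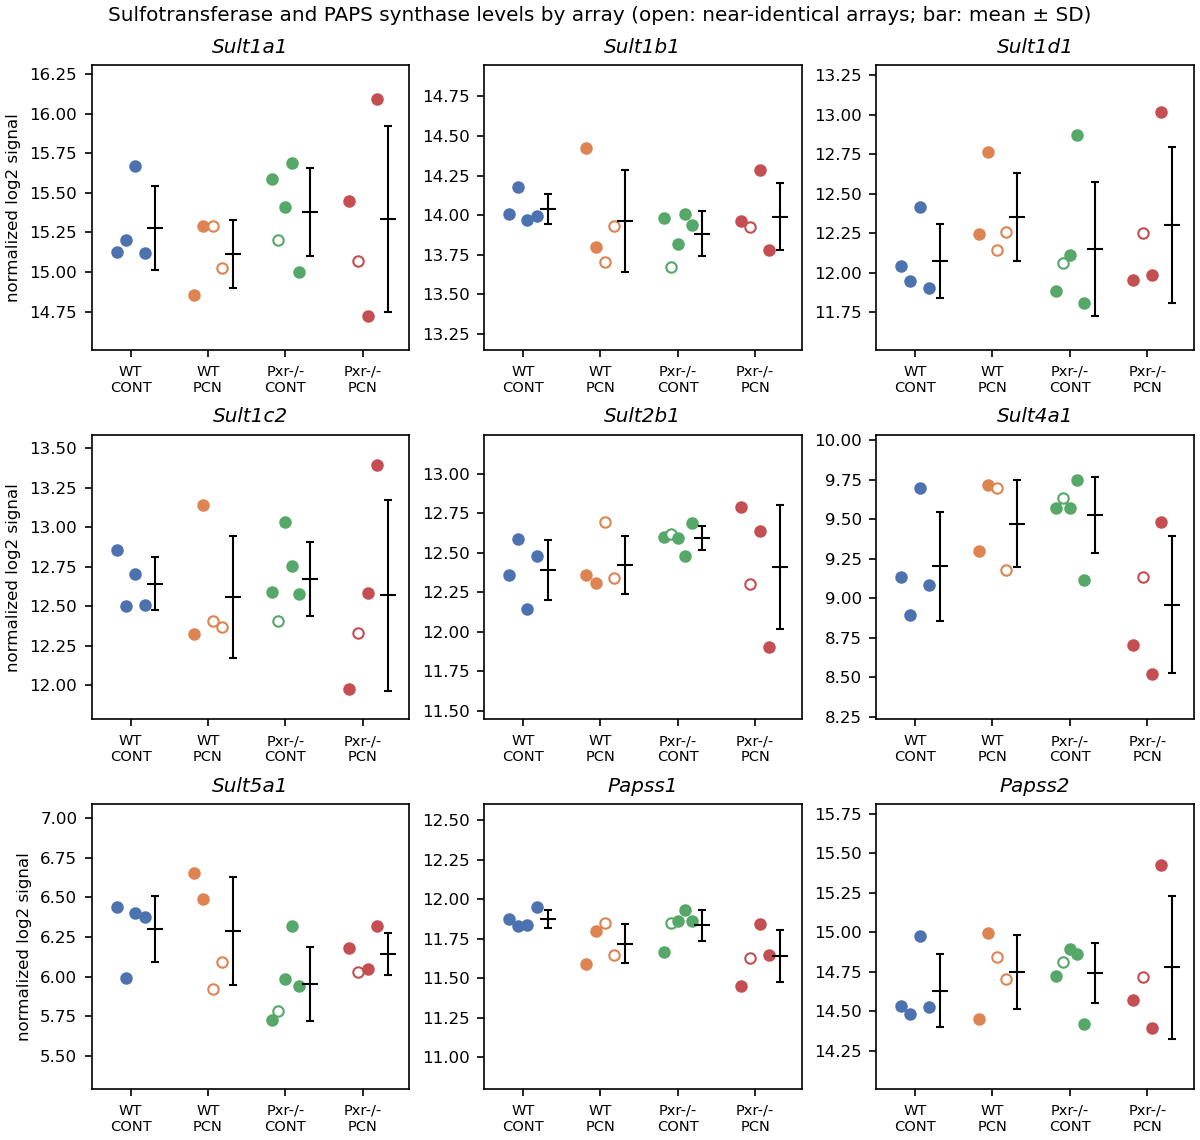
Normalized log2 signal of each of the 9 genes by array in the 4 groups, with the mean and SD of each group as a black bar. Open circles are the 4 near-identical arrays and every panel spans the same range of 1.8 log2 units. The single high array of Pxr-/- PCN in the Sult1a1 (16.09), Sult1d1 (13.01), Sult1c2 (13.39) and Papss2 (15.42) panels is replicate 4, which is the lowest for Sult2b1 (11.90).

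Arrays of the same group differed widely for most of these genes. The residual SD of the model was 0.12 (log2) for Papss1 and 0.20 to 0.36 for the other 8. Group differences larger than it were fitted for Papss1 (PCN in both genotypes), Sult5a1 (genotype in CONT mice) and Sult4a1, and none of these passed the adjustment. The SD over the 13 arrays was 0.15 (log2) for Papss1, 0.19 for Sult1b1 and 0.24 to 0.41 for the other 7, beside a median of 0.18 over all probes tested. This spread was shared among genes. Over the 13 arrays Papss2 correlated with Sult1a1 (r = 0.87), Sult1d1 (r = 0.82) and Sult1c2 (r = 0.76), and in the opposite direction with Sult2b1 (r = -0.74) and Sult1b1 (r = -0.70). These arrays share labelling and normalization, and the values are given as a description of 36 pairs of genes.

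The same order of arrays was found in genes of the distal end of the gut. Hoxb13, Hoxd12, Hoxd13 and Hoxa13 are homeobox genes that mark the distal colon, and Prac was not found on the array under that name. Their mean log2 signal ranged from 8.38 to 11.36 on 16 arrays and was 6.54 in Pxr-/- PCN 4. The 4 genes did not move as one. Hoxa13 was 7.83 in Pxr-/- PCN 4 and 9.32 to 9.88 on the other 16 arrays, and it was no higher in Pxr-/- PCN 3 and WT PCN 1 (9.48 in both), where Hoxd12 and Hoxd13 were highest, than in Pxr-/- CONT 4 (9.83). Hoxd12 was well above the background on 11 of the 17 arrays. Hoxb13 alone ran from 7.53 in that array to 16.09 in WT CONT 3. The group ranges overlapped (8.79 to 10.94 in WT CONT, 8.87 to 11.33 in WT PCN, 8.38 to 10.45 in Pxr-/- CONT and 6.54 to 11.36 in Pxr-/- PCN). Which stretch of the colon was taken is not given in the sources used here.

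Papss2 fell as these genes rose. Over 13 arrays Pearson's r was -0.95 and Spearman's rho was -0.91, and r was -0.93 without the 2 arrays farthest from the median of the list, Pxr-/- CONT 4 and Pxr-/- PCN 4. Within wash bath 1 (6 arrays) r was -0.91 and within wash bath 2 (7 arrays) it was -0.97. With group means taken out it was -0.96. In the model with group and bath, each log2 unit of the list went with a change in Papss2 of -0.21 (SE 0.02, limma, adjusted p = 4.8e-05 over all probes, 17 arrays). The residual SD of Papss2 fell from 0.28 to 0.11 with the list in the model. The slope was -0.22 with 13 arrays (adjusted p = 0.00050) and -0.19 without Pxr-/- PCN 4 (adjusted p = 0.0024).

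Sult1a1 and Sult1d1 ran the same way as Papss2. Their slopes on the distal colon list were -0.22 (SE 0.04, limma, adjusted p = 0.0027) and -0.23 (SE 0.05, adjusted p = 0.0050). Over 13 arrays r was -0.88 and -0.84 (rho -0.86 and -0.66), and it was -0.75 and -0.62 without the same 2 arrays. Within wash baths 1 and 2 it was -0.87 and -0.90 for Sult1a1 and -0.88 and -0.85 for Sult1d1. They passed with 13 arrays too (adjusted p = 0.0027 and 0.00086), but not without Pxr-/- PCN 4 (slopes of -0.19 in both, adjusted p = 0.056 and 0.097). Sult1c2 had a slope of -0.17 (adjusted p = 0.090) and -0.21 with 13 arrays (adjusted p = 0.019). Without Pxr-/- PCN 4, and with the near-identical arrays kept, its slope was -0.01 (SE 0.07). Over 13 arrays r was -0.74 (rho -0.78), and it was -0.59 without Pxr-/- CONT 4 and Pxr-/- PCN 4, -0.69 within wash bath 1, which does not hold Pxr-/- PCN 4, and -0.85 within wash bath 2.

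Sult1b1 and Sult2b1 ran the opposite way, higher where the distal genes were high. The slope of Sult1b1 was 0.12 (SE 0.03, limma, adjusted p = 0.021), and 0.16 without Pxr-/- PCN 4 (adjusted p = 0.026), but it missed the threshold with 13 arrays (0.10, adjusted p = 0.082). That of Sult2b1 was 0.12 (SE 0.04, adjusted p = 0.034), 0.14 with 13 arrays (adjusted p = 0.010) and 0.07 without Pxr-/- PCN 4 (adjusted p = 0.39). Over 13 arrays r was 0.73 for Sult1b1 (0.79 and 0.71 within wash baths 1 and 2) and 0.72 for Sult2b1 (0.58 and 0.77). Sult1d1 and Sult1b1, though neighbours on the chromosome, thus had slopes of opposite sign.

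The slope of Sult4a1 was -0.21 (SE 0.04, limma, adjusted p = 0.0012), and it passed with 13 arrays and without Pxr-/- PCN 4 (adjusted p = 0.0013 and 0.0057). Its correlation with the list was weaker within wash bath 2 (r = -0.44) than within wash bath 1, and that difference was not tested. Papss1 (-0.01, adjusted p = 0.80) and Sult5a1 (-0.03, adjusted p = 0.78) showed no slope beyond their spread. In all 6 of the 9 genes passed at an FDR of at most 0.05 with 17 arrays, 4 falling and 2 rising, where 14.5% of all probes did. With 13 arrays 6 passed beside 12.6% of all probes, and without Pxr-/- PCN 4 only Papss2, Sult4a1 and Sult1b1 passed, beside 14.6%. The second probes gave slopes of the same sign, -0.22 for Sult1a1, 0.24 for Sult1b1, -0.21 for Sult1d1 and -0.24 for Papss2 (adjusted p of 0.00031 to 0.0053). With the distal colon list as a covariate, still no gene was called in any group comparison, and Sult4a1 for PCN in Pxr-/- mice came closest (-0.58, SE 0.12, adjusted p = 0.11).

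**Figure D3:**
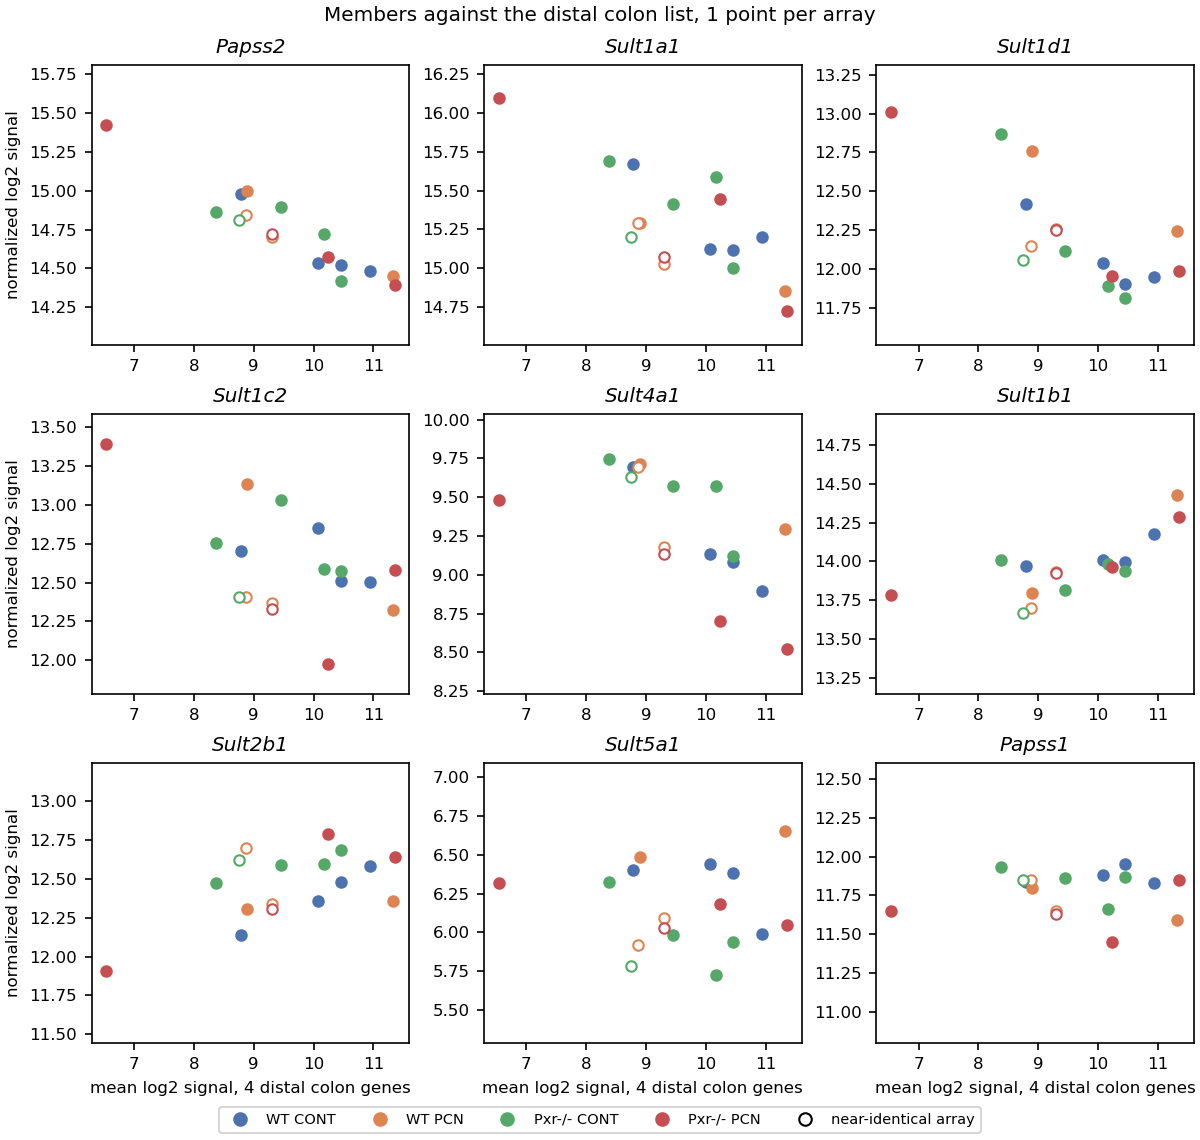
Normalized log2 signal of each gene (vertical axis, the same span of 1.8 log2 units in every panel) against the mean log2 signal of 4 distal colon genes, 1 point per array, coloured by group. Papss2 falls along the axis in all groups (r = -0.95 over 13 arrays), Sult1b1 rises, and Papss1 and Sult5a1 show no slope. The point far to the left is Pxr-/- PCN 4, at 6.54.

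Sult4a1 followed markers of enteric neurons most closely. The mean log2 signal of 8 such genes, among them Elavl4, Uchl1, Snap25 and Chrna3, was 9.46 to 9.79 in WT CONT, 9.49 to 9.91 in WT PCN, 9.48 to 9.97 in Pxr-/- CONT and 9.18 to 9.57 in Pxr-/- PCN. All but Chrna3 were well above the background on every array. Over 13 arrays Sult4a1 correlated with this mean at r = 0.94 (Spearman's rho = 0.97), at 0.88 without the 2 arrays farthest from its median, Pxr-/- PCN 1 and 3, and at 0.97 and 0.94 within wash baths 1 and 2. Its slope was 1.78 (SE 0.20, limma, adjusted p = 0.0010), and 1.85 and 1.70 with 13 arrays and without Pxr-/- PCN 4 (adjusted p = 0.0048 and 0.0078). Sult4a1 also correlated with the smooth muscle list (r = 0.78 over 13 arrays), which itself correlated with the neuronal list (r = 0.81). In whole tissue, fewer cells of a type and less RNA per cell cannot be told apart.

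The neuronal markers moved with the PCN difference of Sult4a1. In Pxr-/- mice all 7 tested markers were lower with PCN (fitted log2 fold changes of -0.63 to -0.14, none called), and so were all 6 smooth muscle markers (-0.46 to -0.16, none called). In WT mice 6 of the 7 neuronal markers and all 6 smooth muscle markers lay higher with PCN (up to 0.22 and 0.21). With the neuronal list as a covariate, the PCN effect on Sult4a1 in Pxr-/- mice was 0.14 (SE 0.11, limma, adjusted p = 0.72) in place of -0.56. The difference between PCN effects was then -0.02 (SE 0.15) in place of -0.84. This covariate was added after seeing the data, and the list was itself lower on average in Pxr-/- PCN. The part of neuron or smooth muscle content in the Sult4a1 difference was not tested.

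Fewer of the other genes followed the neuronal list. With 17 arrays 4 of the 9 genes had a slope past the threshold (Sult1a1, Sult1d1, Sult4a1 and Papss2), beside 5% of all probes. With 13 arrays these and Sult2b1 passed, beside 9.07%. Without Pxr-/- PCN 4 only Sult4a1 did, beside 0.917%. For Sult1a1, Sult1d1 and Papss2 the correlation over arrays was 0.89, 0.83 and 0.88 within wash bath 1 (6 arrays) but 0.18, 0.23 and 0.30 within wash bath 2 (7 arrays). These values hold differences between groups too, and with group means taken out over 13 arrays the correlations were 0.83, 0.91 and 0.88. The neuronal and distal colon lists were themselves correlated (r = -0.50 over 13 arrays, differences between groups included). With group means taken out, Sult1a1, Sult1d1 and Papss2 correlated with the distal colon list too (-0.89, -0.92 and -0.96). The slopes on the neuronal and distal colon lists are therefore not separate results, and their parts were not told apart.

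**Figure D4:**
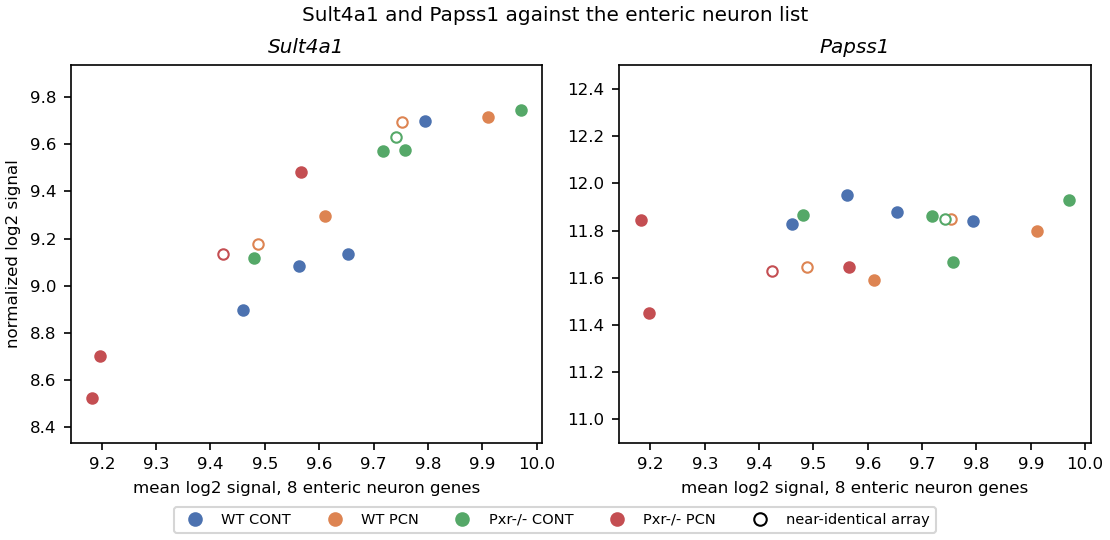
Normalized log2 signal of Sult4a1 (left) and Papss1 (right) against the mean log2 signal of 8 enteric neuron genes, 1 point per array, coloured by group. Sult4a1 rises along the axis (r = 0.94 over 13 arrays), with Pxr-/- PCN 1 and 3 at the lower left (8.70 and 8.52), whereas Papss1 shows no slope beyond its spread.

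The genes most like each member over the 13 arrays were sought among 15122 genes measured on every array. For Sult4a1 these were Clvs1, Scn2a and Glrb (r = 0.98 in each), of which Scn2a encodes a neuronal sodium channel and Glrb the beta subunit of the glycine receptor. For Papss2 they were Ntrk2, Rdh1 and Grin3a (r = 0.96 to 0.97), which encode the receptor of a neurotrophin, a retinol dehydrogenase and a glutamate receptor subunit. For Sult1d1 they were Car1, Hoxd8 and Slc10a2 (r = 0.95 in each). Car1 is a carbonic anhydrase of colonocytes and Slc10a2 the apical bile acid transporter of the ileum. For Sult1b1 they were Serpinb1a (r = 0.95), Net1 and Trp53inp1, for Sult1a1 Itpka (r = 0.95), Vdac3 and Nrep, and for Sult1c2 Macrod2 (r = 0.95), Lrrtm1 and Nrn1. For Sult2b1 they included Dock3 (r = 0.93) and Slc35a4, for Sult5a1 Il4ra (r = 0.87), Rpp25 and Ptgis, and for Papss1 Camsap1 (r = 0.87), Mbnl1 and Pkia. These are the highest of many correlations and describe 13 arrays only.

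Other genes of sulfur and sulfonate metabolism were read as 5 lists of 70 genes, of which 57 passed the filter on dim probes. None was called in any comparison, with 17 or 13 arrays. At an unadjusted p under 0.05, 3 were lower with PCN in WT mice (5.26% of 57), and 2 were higher and 4 lower with PCN in Pxr-/- mice (10.5%). For genotype in CONT mice 2 were higher and 3 lower (8.77%), in PCN mice 2 were lower (3.51%), and the difference between PCN effects was higher for 1 and lower for 1 (3.51%). The shares of all probes in these comparisons were 4.66%, 7.35%, 12.7%, 3.28% and 5.38%. The median log2 fold changes of the 57 genes were 0.03 and 0.01 for PCN in WT and Pxr-/- mice.

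Among 14 other cytosolic sulfotransferases, 11 were not well above the background on 4 arrays or more, the Sult2a1 to Sult2a7 enzymes of bile acids and steroids, Sult3a1, Sult3a2, Sult6b1 and Sult6b2. Sult1e1 (estrogen sulfotransferase), Sult1c1 and Sult2a8 were tested, with PCN effects of 0.03 (SE 0.44), 0.12 (SE 0.15) and -0.07 (SE 0.14) in WT mice and of 0.22 (SE 0.41), 0.14 (SE 0.14) and 0.14 (SE 0.13) in Pxr-/- mice. None had an unadjusted p under 0.05. Sult1e1 was well above the background on 4 arrays only, and Sult1c1 and Sult2a8 on all 17. For sulfate supply, Cdo1, the cysteine dioxygenase that starts the oxidation of cysteine to sulfate, was 10.12 ± 0.18 in WT CONT and 9.79 ± 0.13 in WT PCN (SD, log2). Its change was -0.31 (SE 0.11, limma, unadjusted p = 0.014, adjusted p = 0.96). Slc26a6, an anion exchanger that carries sulfate among other ions, differed by -0.20 (SE 0.09) between Pxr-/- CONT and WT CONT (adjusted p = 0.37).

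Of the 4 genes of PAPS transport and PAP breakdown, Impad1, the Golgi phosphatase of the product PAP, was 12.86 ± 0.08 in WT CONT and 13.19 ± 0.07 in Pxr-/- CONT. The difference was 0.34 (SE 0.09, limma, unadjusted p = 0.0024, adjusted p = 0.23). Slc35b3, a Golgi transporter of PAPS, had no unadjusted p under 0.05 with 17 arrays. With 13 arrays it had 1, for genotype in CONT mice, with a log2 difference of 0.21 and an unadjusted limma p of 0.049. Of the 11 genes of the sulfatase list, Arsk, a lysosomal sulfatase, was 6.76 ± 0.17 in WT CONT and 6.43 ± 0.07 in WT PCN (-0.34, SE 0.11, adjusted p = 0.96), and Sts, the steroid sulfatase, had no unadjusted p under 0.05.

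Among 25 tested sulfotransferases of the Golgi, Chst2, which sulfonates N-acetylglucosamine in glycans, stood apart in WT CONT. It was 7.12 ± 0.23 in that group and 6.47 ± 0.09, 6.53 ± 0.16 and 6.41 ± 0.18 in WT PCN, Pxr-/- CONT and Pxr-/- PCN (SD, log2). The PCN effect in WT mice was -0.64 (SE 0.12, limma, unadjusted p = 0.00011, adjusted p = 0.68) and the genotype difference in CONT mice was -0.60 (SE 0.11, unadjusted p = 0.00011, adjusted p = 0.18). Adipocyte markers had the same order of groups, with list means of 9.69 in WT CONT and 8.69, 8.71 and 8.14 in the other 3, and median log2 fold changes of -0.99 for PCN in WT mice and -1.02 for genotype in CONT mice (5 of 6 markers lower in each, none called). They also lay lower in WT PCN where Cdo1 and Arsk did, and their part in these differences was not tested. Chst7, which acts on chondroitin and N-acetylglucosamine, was 7.64 ± 0.12 in Pxr-/- CONT and 7.28 ± 0.09 in Pxr-/- PCN (-0.35, SE 0.10, unadjusted p = 0.0028, adjusted p = 0.41).

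The promoters were searched for the half-sites of PXR, AGGTCA and AGTTCA, on both strands of the 250 bases before each transcription start in RefSeq (GRCm38.p6). Starts were listed for 8 of the 9 genes, all but Sult4a1, with 12 starts in all. A match was found for 3 genes, Sult1b1, Sult1d1 and Papss2, and none in this window for the other 5. Of all 32851 promoters of this length, 14% held AGGTCA, 11.8% AGTTCA and 24.2% either. These shares count starts and not genes, and the 3 genes held matches at 1 start each, of the 12 starts. At 1 of its starts Sult1b1 held 3 matches, beginning 183, 123 and 11 bases before the start, and 3 or more were found in 0.499% of all promoters. Sult1d1 held 1, beginning 119 bases before the start, and Papss2 held 1 at 1 of its starts, beginning 197 bases before it. A match of these letters is a description and not a binding site, and none of the 3 genes was called with PCN. The neighbours Sult1b1 and Sult1d1 are shown because both held a match and had slopes of opposite sign along the distal colon list, with the half-sites in capitals as they read on the gene's strand. The windows are chr5:87538196-87538445 and chr5:87569007-87569256, both on the minus strand.
Sult1b1 promoter: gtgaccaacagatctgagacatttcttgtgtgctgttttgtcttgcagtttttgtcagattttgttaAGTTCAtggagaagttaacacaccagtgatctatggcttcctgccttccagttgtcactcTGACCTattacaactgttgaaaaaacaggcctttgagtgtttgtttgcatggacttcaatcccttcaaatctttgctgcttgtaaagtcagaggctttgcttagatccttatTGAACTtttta
Sult1d1 promoter: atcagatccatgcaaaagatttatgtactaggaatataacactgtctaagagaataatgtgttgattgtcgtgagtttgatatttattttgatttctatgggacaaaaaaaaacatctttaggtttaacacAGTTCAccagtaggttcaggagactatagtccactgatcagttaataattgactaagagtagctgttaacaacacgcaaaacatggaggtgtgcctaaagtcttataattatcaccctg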

How the data were processed

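Colon RNA was measured on Agilent 1-colour arrays. The authors deposited each array's spot intensity (median and mean pixel brightness, without normalization between arrays), read with Agilent Feature Extraction 10.10.1.1, and log2 values of 36695 probes in a separate table. For liver arrays of the same design they state CrossNorm and a correction for the wash bath, and how this table of colon values was normalized is not given in the sources used here. Here, the median intensity of 59305 non-control spots was used. Outlier spots (74 to 142 per array) were dropped, and log2 intensities were quantile-normalized and averaged to 56605 probes, of which 38703 were tested because 4 or more arrays read them well above background. On single arrays 62.7% to 71% of probes reached that level and none was saturated. Precision is limited by the number of arrays.

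The 17 arrays were fitted together in limma 3.58.1 (R 4.3.3), with group and wash bath as terms and Benjamini-Hochberg adjustment over all probes, after the script had been tested on simulated data. Single genes were also tested with exact two-sided permutations, which ignore the bath. For slopes, the mean log2 signal of a marker list was a further term. These slopes were chosen after seeing the data, and the members and gene lists were chosen with earlier results of these data known. Beside the members, the genes named are any called, the 2 of each pathway list with the smallest unadjusted p, and the 3 most correlated with each member, except items that are not reported here. The file's probe names were updated by accession through RefSeq for GRCm38.p6 (32994 matched, 1535 renamed). Alternatives covered the log2 table, 75th percentile scaling, normexp (offset 50), filters, block terms, other probes, arrays left out, and each wash bath alone.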

Additional observations from a re-analysis of the deposited data

Results flagged for a closer look

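In 36 groups of 4 or 5 arrays (9 genes in 4 groups), 7 held an array set apart from the others by a gap that was large beside the range of the group. Chance flags about 1 in 20 independent groups. These groups are not independent, because the 9 genes were read on the same arrays and several were correlated (r = 0.87 for Papss2 and Sult1a1 over 13 arrays). The count is therefore not read as an excess. Papss2 and Sult1a1 were both highest in WT CONT 4, at 14.98 and 15.67 (log2), with gaps of 0.898 and 0.848 of the range. That array had a low distal colon list (8.79) and the highest pancreas list (17.66), and their part in these levels was not tested. Sult1d1 was highest in Pxr-/- CONT 4 (12.87, 0.713 of the range), the CONT array with the lowest distal colon list (8.38). Sult1c2 was highest in WT PCN 2 (13.14, 0.9 of the range) and Sult2b1 in WT PCN 3 (12.70, 0.87), 1 of the near-identical arrays. Sult4a1 was lowest in Pxr-/- CONT 5 (9.12, 0.722) and Sult5a1 in WT CONT 3 (5.99, 0.871).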

How the results depend on the processing

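No member was called in any of the 5 comparisons under any of 35 alternatives (smallest adjusted p of a member 0.11), so every count of called members remained 0, with the replicate block too (0 members called in each comparison). Replicate numbers were not taken as pairs in the main fit. Deviations from the group means of 22 same-numbered pairs of arrays correlated from -0.39 to 0.56 (median 0.11). The median was -0.04 in 86 pairs with different numbers, so whether the numbers mark a pairing is not settled. Of 1575 fitted log2 fold changes under an alternative, 161 changed sign and 66 moved by more than the residual SD, none of them called. Those that moved came mostly from the fits within wash bath 1 (18) and 2 (20), which have 9 and 8 arrays, and with the neuronal list as a covariate (21). The unadjusted p of Papss1, Sult4a1 and Sult5a1 values under 0.05 held in 20 to 32 of 35 alternatives each. The count of 6 members with a slope on the distal colon list was 3 to 6 with 1 array left out, lowest without Pxr-/- PCN 4. The count of 4 on the neuronal list was 1 to 5 with 1 array left out (1 without Pxr-/- PCN 4, 2 without WT CONT 4 or Pxr-/- CONT 5), and 1 without Pxr-/- PCN 4 and the 4 near-identical arrays. These slopes and their alternatives were chosen after seeing the data. The 9 probes were well above background on every array, but for Sult5a1 and Sult4a1 no other probe was, so their levels rest on 1 probe each.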
